A study of Mus musculus with 11 samples.

Results

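The response of naive-derived CD8+ effector T cells to a final stimulation was described from 5 of the 11 arrays of the series, 3 of stimulated and 2 of unstimulated cells. All 18193 genes with a probe set of a single gene symbol were read, and the 14795 of them whose signal lay above the low-value filter were tested. Per the labels, cells came from pmel-1 mice, in which CD8+ T cells carry a transgenic receptor for a peptide of the melanocyte protein gp100, and the naive-derived cells were started from a CD44- fraction. These cells were expanded on plate-bound antibodies to CD3 and CD28, restimulated after 1 week with the human gp100 peptide on allogeneic feeder cells, and grown for 2 weeks with interleukin 2 at 10 cetus units. In the stimulated group the final CD3 and CD28 stimulation lasted 4 h, and the unstimulated group received none. Array titles number the arrays as biological replicates, and a replicate number is called an experiment here. Stimulated arrays came from experiments 1, 2 and 3 and unstimulated arrays from experiments 1 and 2. Same-numbered arrays of these 2 experiments were read as pairs, and an unstimulated naive-derived array of experiment 3 was not analysed here. The memory-derived cells of the series, started from a CD44+ fraction and treated alike (3 arrays with and 3 without the final stimulation), serve below for the test of a difference in response and for levels set beside the naive-derived ones, and they enter the model that gives the standard errors and p values.

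When a T cell receptor is engaged together with CD28, calcium, MAP kinase and NF-kappaB signals start the transcription of immediate early factors within minutes and of cytokine genes within hours. Activated cells also raise amino acid uptake and protein synthesis. The factor ATF4 switches on genes for amino acid transport, serine and cysteine metabolism and tRNA charging when amino acids or protein folding are limiting. Effector CD8+ T cells respond to a renewed signal mainly with cytokines such as interferon gamma and TNF and with release of stored granzymes and perforin.

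Values are given on a log2 scale, so that 1 unit is a 2-fold difference. The deposited table was on a log10 scale as inferred from the hybridization controls, and every fold printed here depends on that inference. A difference is stimulated minus unstimulated. The fitted difference is between group means (n = 3 and 2 arrays) with its standard error (SE), and the difference within experiment 1 or 2 is between the paired arrays. The filter level was 1.54, the array's 40th percentile. For a gene below this level on every array of 1 group, the difference is measured from the level and is a bound. The highest value on any array was 15.15, and levels close to it are compressed.

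The labelled cell type was checked first. Markers of CD8+ T cells had a summed linear signal of 3872 and 4111 on the unstimulated and of 3126 to 3482 on the stimulated arrays, so that the sums did not overlap. Of the 8 markers, Cd8a, Thy1 and Cd3g had all stimulated arrays below the unstimulated ones, and 0 had all above. Cd3d was at 9.74 and 9.79 against 9.77 and below, and Cd8b1 at 8.745 and 8.713 against 8.735, 8.660 and 8.745. Cd2 was at 7.36 and 7.70 against 7.66, 8.04 and 7.94. Because RNA was measured in bulk, fewer cells of a type and less RNA per cell cannot be told apart. Markers of B cells summed to 50.5 and 60.1 without and 46.0 to 59.4 with stimulation, and those of macrophages and dendritic cells to 72.5 and 89.1 against 65.0 to 90.5. CD4 and regulatory T cell markers summed to 25.4 and 26.8 against 20.9 to 24.9, NK and gamma-delta T cell markers to 26.8 and 45.8 against 23 to 40.3, and erythroid and platelet markers to 19.4 and 20.8 against 17.5 to 22.4. Below the filter level on all 5 arrays were 2 of 8 B cell markers (Cd79a and Ms4a1), 1 of 15 macrophage and dendritic cell markers (C1qa), 1 of 5 CD4 and regulatory T cell markers (Cd4), 1 of 5 NK and gamma-delta T cell markers (Klra8) and 3 of 6 erythroid and platelet markers (Alas2, Ppbp and Slc4a1). Of the others, Ighm of B cells reached 4.85, Itgax of dendritic cells 4.80, Cd68 of macrophages 4.03 and Fcer1g of NK cells and myeloid cells 5.05 on their highest arrays. The part of such cells in the results was not tested.

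A measure of RNA quality moved with the groups. The 3' minus 5' difference of the actin control probe sets (log10), which is larger in more degraded RNA, was 0.478 and 0.462 on the unstimulated arrays of experiments 1 and 2 and 0.782, 0.581 and 0.703 on the stimulated arrays of experiments 1, 2 and 3. The same difference for the Gapdh control overlapped, at -0.496 and -0.426 without and -0.444, -0.548 and -0.506 with stimulation. The actin difference separated the memory-derived groups too, at 0.35, 0.34 and 0.26 without and 0.44, 0.52 and 0.43 with stimulation. It thus moved with stimulation in both origins, and a model holding both cannot fully part them. Where the fitted difference of a gene named below turned when the actin difference was added to the model, both values are given. The turned values had limma adjusted p of 0.797 to 0.991, so they show no reversal by themselves.

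The unstimulated naive-derived arrays stood apart from the unstimulated memory-derived ones. Il2, the T cell growth factor, was at 12.18 and 11.04 on the unstimulated naive-derived arrays, against 2.32 to 4.96 on the 3 unstimulated and 10.11 to 11.50 on the 3 stimulated memory-derived arrays. Tnf, an inflammatory cytokine, was at 9.06 and 7.93 there, against 5.23 to 6.06 and 9.52 to 10.23. Both cytokine genes were therefore already high in the cells labelled unstimulated, and the differences described next start from that level.

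The response was small in most genes. Only 64 of the 14795 genes had a mean difference of at least 2-fold, 36 higher and 28 lower, where the memory-derived response had 582 and 755. Unadjusted p values from limma lay below 0.05 for 598 genes that were higher (4.04%) and 654 that were lower (4.42%), together 8.46%, and chance alone gives 740 in both directions. When arrays were scaled by the hybridization controls instead, 232 were higher and 503 lower. After Benjamini-Hochberg adjustment 0 genes passed higher and 2 passed lower (0.0135%). Without the unstimulated array of experiment 1 the count of lower genes with an unadjusted p below 0.05 was 339. With 3 arrays against 2, an exact test on the ranks of a single gene cannot give a two-sided p below 0.2. The titles call the arrays biological replicates, but nothing in the labels says that experiments came from separate mice. The p values may therefore measure only the spread between these cultures.

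Both pairs of arrays pointed the same way for 57.6% of genes. Across genes the difference in experiment 1 and that in experiment 2 correlated at r = 0.157 (Spearman rho 0.182, n = 14795 genes, which share their arrays and are not independent replicates). Higher in both experiments were 4689 genes (31.7%), and lower in both were 3826 (25.9%). At least 2-fold higher were 170 genes in experiment 1 and 261 in experiment 2, with 15 in common (0.101% of genes tested). At least 2-fold lower were 138 and 174 genes, with 11 in common (0.0743%). For comparison, the 2 unstimulated arrays differed from each other at least 2-fold in 239 genes, and the stimulated arrays in 316 to 483 genes per pair.

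**Figure D1:**
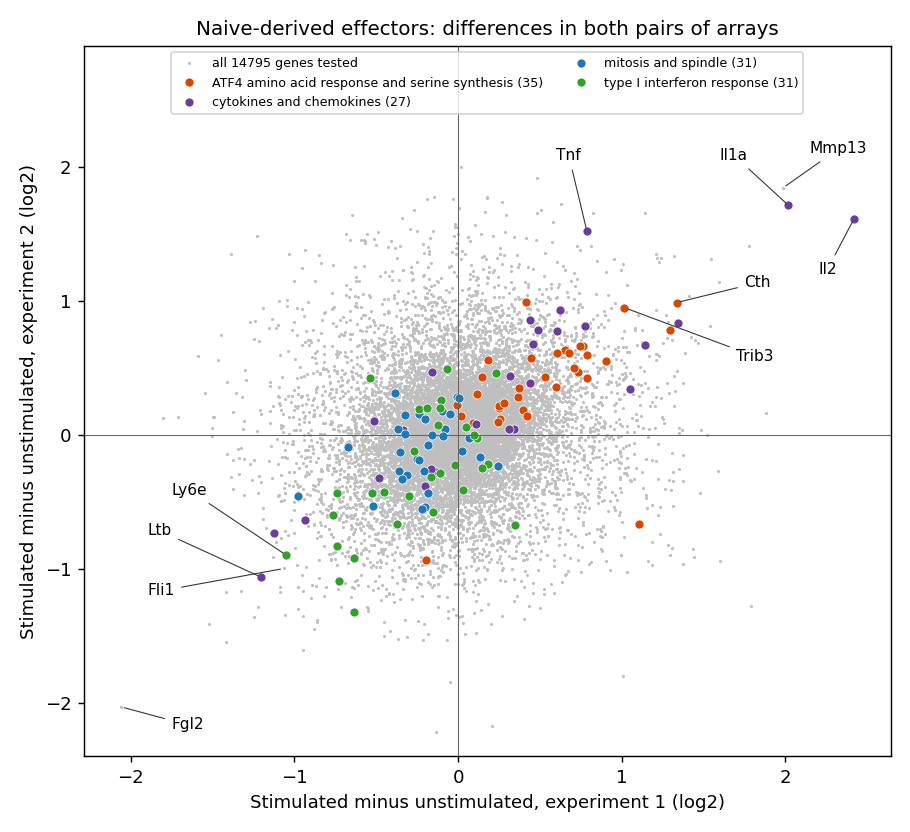
Stimulated minus unstimulated difference (log2) of each of the 14795 tested genes in experiment 1 (horizontal axis) and experiment 2 (vertical axis), naive-derived cells only. Il2, Il1a, Mmp13 and Tnf lie at the upper right, Fgl2 alone at the lower left, and most ATF4 genes (orange) in the upper right part, where 32 of 35 lie.

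Fgl2 fell, with the largest downward difference of all genes tested, and it was the single gene above the filter level that passed the test. It encodes fibrinogen-like protein 2, a secreted and membrane-bound regulator with inhibitory effects on T cells. Its level was 5.62 and 5.64 on the unstimulated arrays of experiments 1 and 2 and 3.56, 3.61 and 2.50 on the stimulated arrays of experiments 1, 2 and 3. The groups were thus separated by about 2 units, and the unstimulated arrays were nearly equal. The fitted difference was -2.41 (SE 0.294, limma adjusted p = 0.0417), a 5.31-fold fall, and a second probe set of the gene differed by -2.18. The call was lost with the experiment as a replicate block (difference -2.23, adjusted p = 0.0814), with the actin difference as a covariate (-2.37, adjusted p = 0.296), when only naive-derived arrays were fitted (adjusted p = 0.477), and without the unstimulated array of experiment 1 or of experiment 2 (adjusted p = 0.266 and 0.283). Of the 11 arrays, leaving out the stimulated naive-derived array of experiment 1 or 3 alone kept it. It was also kept when experiments 1 and 2 alone were fitted (-2.05, adjusted p = 0.0335). The second gene that passed, H2-Q2 of the MHC class I region (adjusted p = 0.0325, and 0.142 with the replicate block), lay below the filter level in both groups, so no change is given for it. It shares sequence with other class I genes of the H2-Q family, which a probe set may not tell apart.

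Cytokine and protease genes led the genes that were higher in both experiments. Il2 stood at 12.18 and 11.04 without and at 14.60, 12.65 and 14.33 with stimulation, so that all 3 stimulated arrays lay above both unstimulated ones. Its difference was 2.42 in experiment 1 and 1.61 in experiment 2 (fitted 2.25, SE 0.761, adjusted p = 0.477). With the actin difference as a covariate the fitted value was -0.069. Il1a, which encodes the inflammatory cytokine interleukin 1 alpha, stood at 3.82 and 3.33 without and at 5.84, 5.04 and 4.89 with stimulation (fitted 1.68, SE 0.295, adjusted p = 0.164). Mmp13, which encodes a collagenase, stood at 4.11 and 2.68 against 6.10, 4.52 and 5.45 (fitted 1.96, SE 0.445). The spread between the unstimulated arrays of Mmp13 was 1.44, close to its difference. Cxcl2, a chemokine for neutrophils, was at 1.93 and 1.66 against 3.71, 3.07 and 2.86 (fitted 1.42, SE 0.221, adjusted p = 0.117). Il6, another inflammatory cytokine, was at 2.53 and 1.92 against 3.76, 3.21 and 3.31. Cth, the enzyme that makes cysteine from cystathionine, was at 2.54 and 2.44 against 3.88, 3.42 and 3.63 (fitted 1.15, SE 0.177, adjusted p = 0.117). Il1a, Cxcl2 and Cth passed when the variance model of limma was given a trend and made robust (adjusted p = 0.0374, 0.0335 and 0.0374), a setting under which 13 genes passed.

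Other genes high on this list were close to the filter level. Fndc10 was at 0.75 and 1.78 without and 2.16, 2.81 and 2.49 with stimulation. St6galnac5, a sialyltransferase, Tcl1b4, Exd1, Gm13648, Sntg1, 1700066J03Rik and Trarg1 lay below the level on both unstimulated arrays, which leaves bounds of 0.14 (Sntg1) to 0.64 (St6galnac5) for their differences. These genes had no values on the unstimulated arrays from which a fold could be read. The 15 genes were picked for the size of their smaller paired difference and for groups that do not overlap, so these values describe them and test nothing.

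Among the 15 genes that were lowest in both experiments, Fgl2 was followed by genes of varied function. Iigp1, an interferon-inducible GTPase of cell-autonomous immunity, stood at 5.76 and 6.20 without and at 4.24, 4.79 and 4.53 with stimulation (fitted -1.46, SE 0.293, adjusted p = 0.226). Fli1, an ETS transcription factor that restrains effector CD8+ T cells, was at 6.15 and 6.11 against 5.09, 5.11 and 4.35 (fitted -1.28, SE 0.207, adjusted p = 0.121). Cd200r4, a receptor of the CD200R family, was at 3.80 and 3.48 against 2.74, 2.13 and 2.16 (fitted -1.29, SE 0.194, adjusted p = 0.117). Groups that do not overlap were a condition of the choice of these 15 genes, as for the higher ones. Their values therefore describe them and test nothing. Ltb, which encodes lymphotoxin beta, was at 7.19 and 7.98 against 5.99, 6.92 and 6.92 (fitted -0.98, SE 0.30). Gpr34, a receptor for lysophosphatidylserine, was at 4.42 and 4.08 against 3.34, 2.94 and 2.29. Maf, a transcription factor of interleukin 10 and interleukin 4 expression, was at 3.84 and 3.15 against 2.51, 1.98 and 2.62. Tfeb, the main activator of lysosome genes, was at 3.22 and 3.33 against 1.80, 1.78 and 2.70, and D2hgdh, which oxidises D-2-hydroxyglutarate, at 3.61 and 3.90 against 2.66, 2.55 and 2.26. S100a16, Phf21a, AU040972, Mov10, Dnm1 and Ifit1bl1 completed the 15 with fitted differences of -1.21, -1.05, -0.89, -0.80, -0.78 and -0.85. Of these, S100a16, Phf21a, AU040972 and Dnm1 lay below the filter level on the stimulated arrays of experiments 1 and 2, so their differences rest partly on values under it. For Phf21a and Mov10 another probe set differed the other way, as for Fndc10 above and for Tnfaip2, Socs2, Il2ra, Mycn, Top2a and Gins2 below. Cd200r4, Fli1 and D2hgdh passed with the trended, robust variance (adjusted p = 0.0299, 0.0299 and 0.0335). The other probe set of D2hgdh differed by only -0.138, against a fitted -1.265. The 2 others of Maf differed by -0.197 and -0.195, against -1.124. Those of Iigp1 and Fli1 differed by -1.03 and -1.07.

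**Figure D2:**
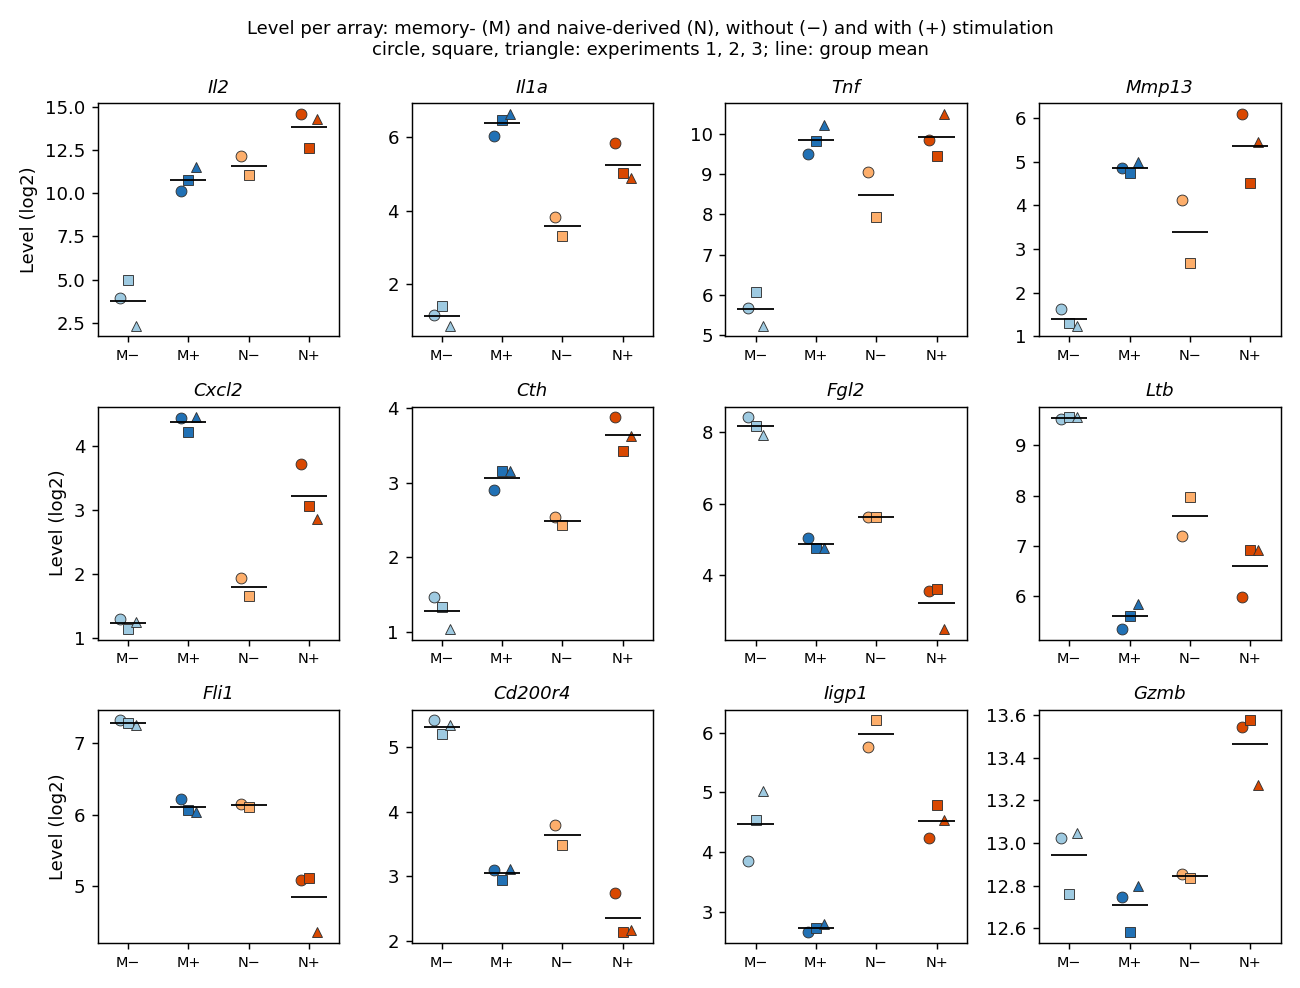
Level (log2) of 12 named genes on each array, with a line at the group mean. M- and M+ are memory-derived cells without and with stimulation (3 arrays each), N- and N+ naive-derived cells (2 and 3 arrays). Symbols mark experiments 1, 2 and 3. Among naive-derived arrays the stimulated ones lie above both unstimulated ones for Il2, Il1a, Tnf, Mmp13, Cxcl2, Cth and Gzmb and below them for Fgl2, Ltb, Fli1, Cd200r4 and Iigp1.

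Cytokines and chemokines were mostly higher after stimulation. This list and those below were chosen with earlier results of these data known. Their counts beside the shares of all genes are therefore descriptions and no tests. Of 27 tested, 17 were higher in both experiments and 7 lower in both. In 12 all stimulated arrays lay above the unstimulated ones (13.6% of all genes) and in 3 all lay below (12.8%). An unadjusted p below 0.05 was found for 6 higher genes (4.04% of all genes) and 2 lower ones (4.42%). The median difference of the list was 0.35, against 0.0072 over all genes tested. With the actin difference as a covariate 7 were higher and 20 lower, with a median of -0.13. Without the unstimulated array of experiment 2, which leaves a single unstimulated array, fewer higher genes of the list had an unadjusted p below 0.05. Tnf was at 9.06 and 7.93 without and 9.84, 9.44 and 10.50 with stimulation (fitted 1.44, SE 0.389). Its 2 unstimulated arrays differed by more than 1 unit, so that its difference was 0.79 in experiment 1 and 1.52 in experiment 2. Il13, a type 2 cytokine, was at 2.31 and 2.65 against 3.45, 3.32 and 3.94 (fitted 1.09, SE 0.405). Csf2 and Il3, growth factors of myeloid and progenitor cells, were 0.75 (SE 0.907) and 0.99 (SE 0.934) higher, less than or about equal to their SE. Both turned with the actin covariate, to -1.01 and -1.05. Chemokines for T cells and macrophages differed little, with Ccl3 at 0.046 (SE 1.06), Xcl1 at 0.039 (SE 0.563) and Ccl4 at 0.47 (SE 0.608). Ccl3 was at -1.50 and Xcl1 at -0.54 with the actin covariate.

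Ifng, the main effector cytokine of CD8+ T cells, was at 13.10 and 13.21 on the unstimulated and 13.42, 13.64 and 13.45 on the stimulated arrays. All stimulated arrays were higher, but by only 0.35 (SE 0.95), and these levels lie near the top of the scale, where differences are compressed. The difference of Ifng was -1.04 with the actin covariate. Some cytokine genes were lower. Cxcl10, an interferon-induced chemokine, was at 4.15 and 4.24 against 3.02, 3.51 and 2.53 (fitted -1.17, SE 0.354), and Lta, which encodes lymphotoxin alpha, at 7.82 and 8.33 against 6.88, 7.69 and 7.53. Lta and Ltb, whose products form a shared membrane complex, were thus both lower on every stimulated array while Tnf, their neighbour in the genome, was higher.

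Surface markers of activation had no common direction. Of 27 activation markers and costimulatory molecules, 12 were higher and 7 lower in both experiments, and the median was 0.099. Adding the actin covariate left 10 higher and 17 lower. The classical markers differed by less than their SE. Cd69, an early activation antigen, was at 8.94 and 8.48 against 8.76, 7.95 and 9.28, Il2ra, the interleukin 2 receptor alpha chain, at 9.07 and 8.45 against 8.80, 8.62 and 8.89, and Tnfrsf9, the receptor 4-1BB, at 9.90 and 9.69 against 9.57, 9.79 and 9.43. In each of these 3 genes the groups overlapped, and the fitted differences were -0.046 (SE 0.349) for Cd69, 0.013 (SE 0.371) for Il2ra and -0.20 (SE 0.401) for Tnfrsf9. Il2ra was at -0.63 with the actin covariate. Ligands of the TNF family differed among themselves. Cd70, the ligand of CD27, was 0.82 higher (SE 0.459), Tnfsf14, or LIGHT, 0.61 (SE 0.354), Tnfsf9, the ligand of 4-1BB, 0.59 (SE 0.331) and Tnfsf4, or OX40 ligand, 0.57 (SE 0.156, unadjusted p = 0.00369). Tnfsf8, the ligand of CD30, was 0.52 higher (SE 0.281), whereas Cd40lg, the ligand of CD40, differed by 0.055 (SE 0.36), Tnfsf11, or RANKL, by -0.15 (SE 0.609) and Fasl, the ligand of Fas, by -0.058 (SE 0.127), all 3 with overlapping groups, and these 4 were added after their values were seen. Slamf1, a costimulatory receptor, was 0.60 higher (SE 0.35). Cd70 was at -0.070 and Tnfsf9 at -0.16 with the actin covariate.

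Immediate early transcription factors and phosphatases were divided. Of 35 tested, 15 were higher and 12 lower in both experiments, and 1 higher (4.04% of all genes) and 3 lower (4.42%) had an unadjusted p below 0.05. Adding the actin covariate left 4 higher and 31 lower. Egr1, Egr2 and Nr4a1, which report receptor signalling, differed by -0.16 (SE 0.35), 0.27 (SE 0.213) and 0.27 (SE 0.351), and their groups overlapped. Each turned with the actin covariate, to 0.23, -0.24 and -0.34. Irf4, which scales effector differentiation with signal strength, was at 8.79 and 8.79 against 9.29, 9.06 and 9.49 (fitted 0.49, SE 0.258, and -0.12 with the actin covariate). Fosl1, a Fos relative, was 0.53 higher (SE 0.372) and Spry1, a feedback inhibitor of MAP kinase signalling, 0.68 (SE 0.508). Fosl1 was at -0.43 and Spry1 at -0.13 with the actin covariate. In the other direction, Nfil3, which supports cytokine gene regulation, was at 4.98 and 4.92 against 4.17, 4.24 and 3.86 (fitted -0.86, SE 0.164, unadjusted p = 0.000281). Jund, a Jun family member, differed by -0.78 (SE 0.275) and Egr3 by -0.65 (SE 0.24). Another probe set of each differed less, by -0.24 for Jund and -0.13 for Egr3, while that of Fosl1 differed by 0.51.

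Members of the NF-kappaB pathway leaned higher. Of 24 tested, 14 were higher and 3 lower in both experiments, and 5 higher genes (4.04% of all genes) and 0 lower ones (4.42%) had an unadjusted p below 0.05. With the actin covariate 10 were higher and 14 lower, with a median of -0.086. Nfkbid, a nuclear I-kappaB protein, was at 9.32 and 8.33 without and 10.17, 9.63 and 10.69 with stimulation (fitted 1.34, SE 0.331, adjusted p = 0.288). Rel, the c-Rel subunit that acts at the Il2 promoter, was at 6.94 and 6.47 against 7.49, 7.37 and 7.36 (fitted 0.71, SE 0.279). Cflar, the inhibitor of caspase 8 at death receptors, was at 6.68 and 6.62 against 7.37, 7.35 and 7.82 (fitted 0.86, SE 0.249), and 1 of 4 other probe sets of the gene differed the other way. All 3 genes were higher on every stimulated array. Tnfaip2 lay below the filter level without stimulation (bound 0.40), and Bcl3, an atypical I-kappaB, differed by -0.56 (SE 0.295).

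Genes of the receptor complex and its first signalling steps leaned lower. Of 23 tested, 13 were lower and 4 higher in both experiments, and the median was -0.18. Rasgrp1, the activator of Ras below the receptor, was at 5.08 and 5.27 against 4.57, 4.45 and 4.33 (fitted -0.73, SE 0.143, unadjusted p = 0.00037). Cd8a, the coreceptor chain, was at 9.66 and 9.65 against 9.0, 9.33 and 8.87 (fitted -0.59, SE 0.21), Grap2, an adaptor, was 1.0 lower (SE 0.343) with overlapping groups, and Ptprc, the phosphatase CD45, 0.49 lower (SE 0.278). Cd6, an adhesion receptor of T cells, went the other way, at 4.90 and 5.11 against 5.13, 5.47 and 6.34. Among 26 genes for calcineurin, NFAT and signalling brakes, 10 were lower and 6 higher in both experiments, while with the actin covariate 10 were lower and 16 higher. Ptpn6, the phosphatase SHP-1, differed by -0.65 (SE 0.183), Sla2 by -0.55 (SE 0.181) and Dok2 by -0.39 (SE 0.179), all 3 being inhibitors of receptor signals, while Sla, an adaptor that lowers receptor levels, was 0.63 higher (SE 0.226).

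Interleukin 2 receptor and inhibitory receptor genes were mixed. Il2rb, the shared beta chain of the interleukin 2 and 15 receptors, was at 7.82 and 7.27 against 6.93, 6.69 and 6.79 (fitted -0.74, SE 0.174, unadjusted p = 0.0014). Socs2 and Socs1, feedback inhibitors of cytokine signalling, differed by -0.69 (SE 0.26) and -0.38 (SE 0.254), and Bcl2, a survival target of STAT5, by -0.37 (SE 0.206), while Gab2, a signalling adaptor, was 0.55 higher (SE 0.175). Of the 16 genes of this list, 9 were lower and 5 higher in both experiments. Among 19 inhibitory receptors and ligands the counts were 8 and 8. Cd200, the ligand of the CD200 receptor, was 0.73 higher (SE 0.268) and Btla, an inhibitory receptor of the CD28 family, 0.67 (SE 0.357). Klrd1, the CD94 chain, was 0.73 lower (SE 0.394) and Cd244a, or 2B4, 0.69 lower (SE 0.256).

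Granule genes did not share a direction. Gzmb, the granzyme that starts apoptosis in target cells, was at 12.85 and 12.83 without and 13.54, 13.57 and 13.27 with stimulation (fitted 0.62, SE 0.149, unadjusted p = 0.00165), so that every stimulated array was higher. Gzma, a second granzyme, was at 13.54 and 13.42 against 13.72, 14.60 and 13.68, with a difference of 0.18 in experiment 1 and 1.17 in experiment 2. Prf1, the pore-forming perforin, was at 8.84 and 8.12 against 8.25, 8.11 and 7.27, and the groups overlapped. The granzymes of the cluster that holds Gzmd and Gzmf differed more between experiments than between paired arrays. Gzmd was at 9.61 and 9.56 on the arrays of experiment 1, at 6.86 and 6.60 on those of experiment 2 and at 5.64 on the stimulated array of experiment 3. Their probe sets target related genes of 1 family, so their signals may not be separate. Of 20 granule genes, 10 were higher and 6 lower in both experiments, and with the actin covariate 5 were higher and 15 lower.

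Transcription factors of effector and memory fate included 2 of the larger differences downward. Eomes, a T-box factor of memory and effector function, was at 4.95 and 4.81 against 3.76, 4.26 and 2.97 (fitted -1.22, SE 0.307, unadjusted p = 0.0023). Prdm1, which encodes BLIMP-1, a driver of terminal effector cells, was at 4.89 and 4.68 against 3.83, 4.19 and 3.28 (fitted -1.02, SE 0.278). The lowest levels of both genes were on the stimulated array of experiment 3. Id3, a factor of memory precursors, Foxo3 and Foxp1, factors of quiescence, were 0.53 (SE 0.361), 0.41 (SE 0.226) and 0.40 (SE 0.132) higher. Klf2, which keeps T cells in circulation, differed by -0.039 (SE 0.158), and Tcf7 was not analysed here. Of 26 factors, 11 were lower and 5 higher in both experiments.

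Receptors for homing were divided, and those for cytokines leaned lower. Gcnt1 and Selplg, an enzyme and the protein that together form selectin ligands, were 0.91 (SE 0.295) and 0.87 (SE 0.222) lower. Ccr2, a receptor for inflammatory chemokines, was at 4.89 and 4.67 against 4.12, 4.12 and 3.86, but 2 of 3 other probe sets of the gene differed the other way. Cxcr3, the receptor that guides effector cells to inflamed tissue, was at 5.18 and 5.20 against 5.41, 5.64 and 6.29. Of 27 homing genes 12 were lower and 8 higher in both experiments, 5 had no overlap downward and 5 none upward (12.8% and 13.6% of all genes), and the median was -0.079. Of 23 cytokine receptors 12 were lower and 5 higher in both experiments, 9 had no overlap downward and 2 none upward, and the median was -0.18. Il10ra, the receptor for interleukin 10, was 0.84 lower (SE 0.189, unadjusted p = 0.00104), Il12rb2 0.47 lower (SE 0.182) and Ifngr1 0.48 lower (SE 0.218). Il1r2, a decoy receptor for interleukin 1, was at 4.67 and 4.49 against 5.54, 5.31 and 5.45 (fitted 0.86, SE 0.191, unadjusted p = 0.00095). Il7r, the receptor for a survival cytokine, differed by -0.18 (SE 0.308), and by 0.25 with the actin covariate.

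Genes of the ATF4 amino acid response were higher in nearly all members. ATF4 is known to bind a composite C/EBP-ATF site in the promoters of many of them. The motif TGATGNAA, on either strand, was found in 2.54% of 15044 RefSeq promoters searched (GRCm38.p6, 250 bases before to 50 after the start) and in 9 of 37 promoters of this list. Windows of 30 bases around it are shown for 3 genes of this list and for Gars and Tars of the aminoacyl-tRNA synthetases described after it, because their values follow and they share those letters, with the match on either strand in capitals.
Asns, chr6:7693214-7693243, minus strand: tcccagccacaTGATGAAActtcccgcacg
Trib3, chr2:152344028-152344057, minus strand: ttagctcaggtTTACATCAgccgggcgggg
Slc1a4, chr11:20332699-20332728, minus strand: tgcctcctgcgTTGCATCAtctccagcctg
Gars, chr6:55037960-55037989, plus strand: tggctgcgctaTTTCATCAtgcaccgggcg
Tars, chr15:11399655-11399684, minus strand: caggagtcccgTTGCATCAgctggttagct
A match describes these letters only. Over the 347 genes outside both lists that hold the motif, the median difference was 0.039, against 0.0060 for the 11509 genes without it.

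Of 35 genes of the amino acid response tested, 32 were higher and 1 lower in both experiments, against 31.7% and 25.9% of all genes. For 24 of them all stimulated arrays lay above both unstimulated arrays (13.6% of all genes), and 18 had an unadjusted p below 0.05 with a higher level (4.04%), with 0 lower. The median difference was 0.44, being 0.44 in experiment 1, 0.42 in experiment 2 and 0.50 on the stimulated array of experiment 3. None of these genes passed after adjustment. The list was chosen with earlier results of these data known, so its counts describe it and test nothing. With the actin difference as a covariate 22 were higher and 13 lower, with a median of 0.062. Without the unstimulated array of experiment 2, which leaves a single unstimulated array, fewer genes of the list had an unadjusted p below 0.05.

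The members ranged over transport, synthesis and regulation. Among transporters, Slc7a3, for cationic amino acids, was at 3.57 and 3.33 without and 4.87, 4.11 and 4.81 with stimulation (fitted 1.15, SE 0.21, adjusted p = 0.189), Slc6a9, for glycine, was 0.76 higher (SE 0.174) and Slc1a4, for alanine, serine and cysteine, 0.74 (SE 0.217). Among enzymes, Cth is described above, and Asns, the asparagine synthetase, was at 7.98 and 7.81 against 8.71, 8.28 and 8.42 (fitted 0.57, SE 0.186). Trib3, a pseudokinase that feeds back on ATF4, was at 4.84 and 4.15 against 5.85, 5.10 and 5.61 (fitted 1.03, SE 0.283). In each of these genes the groups did not overlap, and the stimulated array of experiment 2 was the lowest of the stimulated ones.

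Aminoacyl-tRNA synthetases, which load amino acids on tRNA, were also mostly higher. Of 19 tested, 14 were higher and 2 lower in both experiments, 12 had stimulated arrays all above the unstimulated ones (13.6% of all genes), 6 had an unadjusted p below 0.05 (4.04%), and the median was 0.20. The motif TGATGNAA was present in 5 of the 12 promoters searched. Cars was at 5.64 and 5.51 against 6.23, 6.12 and 6.19 (fitted 0.60, SE 0.133, unadjusted p = 0.000884), and its differences in experiments 1 and 2 were nearly equal, at 0.59 and 0.61. Gars was at 7.65 and 7.50 against 8.14, 8.05 and 8.16, and Aars at 6.69 and 6.49 against 7.23, 7.05 and 7.21. Sars and Tars were 0.51 (SE 0.158) and 0.47 (SE 0.229) higher. With the actin covariate 11 of the 19 were higher and 8 lower, Tars among the latter at -0.063.

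Genes of protein folding stress, which can also lead to ATF4, were divided. Of 30 unfolded protein and heat shock genes, 11 were higher and 8 lower in both experiments, with a median of -0.027. Ppp1r15a, which ends the translation block, was 0.50 higher (SE 0.169), Pdia6, a disulfide isomerase, 0.38 (SE 0.134) and Atf6, a sensor in the endoplasmic reticulum, 0.34 (SE 0.161, and -0.029 with the actin covariate). Hsp90b1, the chaperone GRP94, was at 9.25 and 9.37 against 8.78, 8.41 and 8.80 (fitted -0.65, SE 0.154, unadjusted p = 0.00159).

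**Figure D3:**
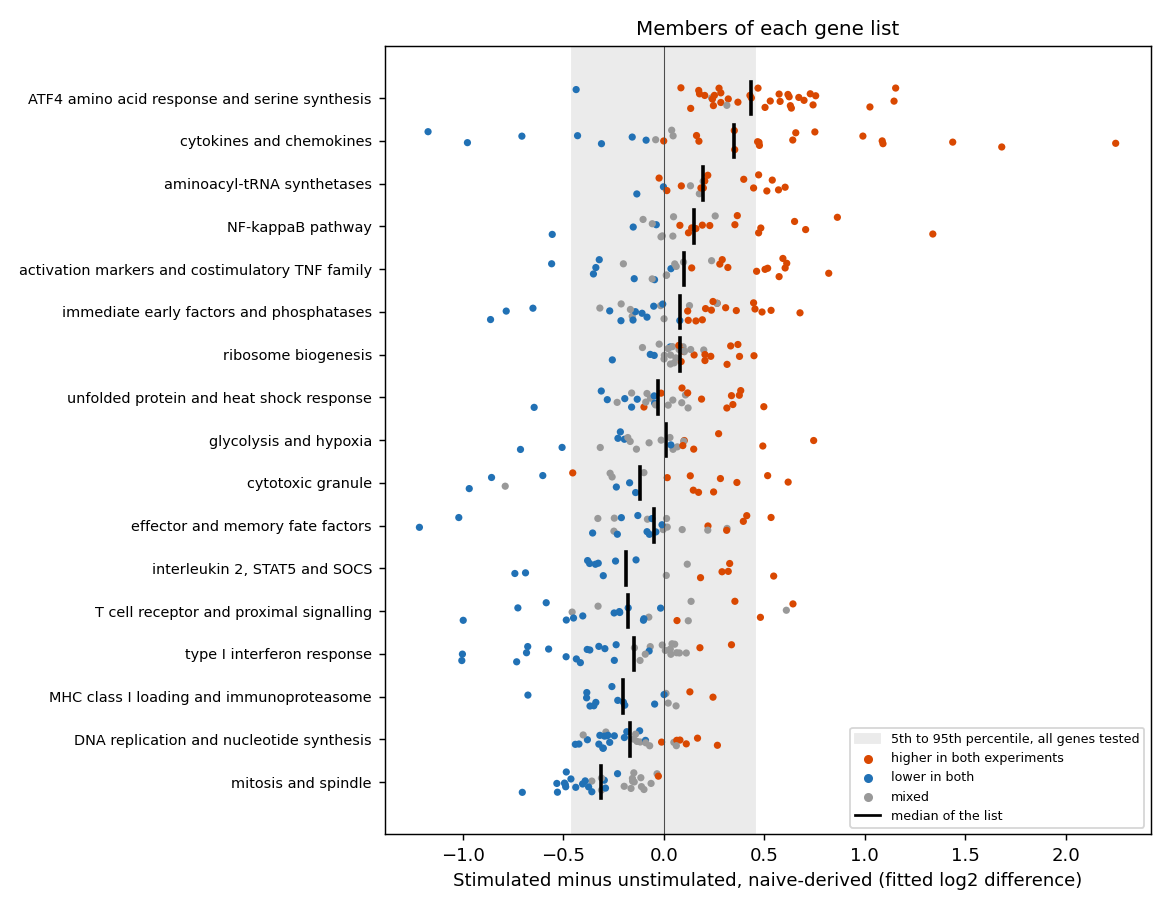
Fitted difference (log2, stimulated minus unstimulated, naive-derived) of each tested member of 17 gene lists. Colour shows whether the member was higher in both experiments, lower in both or mixed, the bar marks the median of the list and the grey band spans the 5th to 95th percentile of all genes tested (-0.46 to 0.46). The ATF4 list has the highest median (0.44) and the mitosis list the lowest (-0.31).

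Growth and metabolism differed little. Of 32 ribosome biogenesis genes 12 were higher and 4 lower in both experiments, with a median of 0.081 (-0.31 with the actin covariate), and Polr1c, a subunit of RNA polymerases I and III, was 0.45 higher (SE 0.167). Myc, a transcription factor of cell growth, was at 9.50 and 9.34 against 9.34, 9.28 and 9.86, with overlapping groups (fitted 0.080, SE 0.478, and -0.74 with the actin covariate). Its relative Mycn was 1.03 lower (SE 0.519), and Sat1, an enzyme that breaks down polyamines, 0.59 higher (SE 0.193). Among 22 genes of glycolysis and hypoxia, Slc2a3, a glucose transporter, was 0.71 lower (SE 0.226). Pdk1, which holds back pyruvate oxidation in the mitochondrion, was 0.51 lower (SE 0.197). Ndrg1, a stress and hypoxia gene, was instead 0.75 higher (SE 0.286, and -0.22 with the actin covariate). The median of that list was 0.0089. Dhcr7 and Scd2, of cholesterol and fatty acid synthesis, were 0.57 (SE 0.224) and 0.51 (SE 0.248) lower, Scd2 being at 0.10 with the actin covariate, and that list of 24 genes had a median of 0.045.

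Genes of mitosis were lower, chiefly on 2 of the 3 stimulated arrays. Of 31 tested, 16 were lower and 1 higher in both experiments, 9 had no overlap between groups (12.8% of all genes), 2 had an unadjusted p below 0.05 (4.42%) and the median was -0.31. All 31 fitted differences were below 0. When experiments 1 and 2 alone were fitted, 25 were below 0 and the median was -0.13. The mean of the list, relative to the unstimulated mean, was -0.33 and -0.58 on the stimulated arrays of experiments 1 and 3 and 0.0044 on that of experiment 2, where the unstimulated arrays stood at -0.11 and 0.11. With the actin covariate 27 of the 31 were higher, with a median of 0.33. Most members share a promoter feature. The letters TTTGAA stood on either strand in 24 of 30 promoters of the list, against 12.7% of all promoters searched. They are the core of the cell cycle homology region, through which many mitotic genes are repressed outside of division. The 1751 genes outside the list that hold these letters had a median difference of 0.0023, against 0.0083 for genes without them. Lower in both experiments were 25.7% of the former and 25.9% of the latter. Windows of the match nearest the start are shown for the 3 members described next, with the match on either strand in capitals.
Kif4, chrX:100626072-100626101, plus strand: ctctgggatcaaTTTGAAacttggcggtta
Mki67, chr7:135716460-135716489, minus strand: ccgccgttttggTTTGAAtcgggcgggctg
Top2a, chr11:99024195-99024224, minus strand: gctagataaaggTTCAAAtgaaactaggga
Kif4, a chromosome-bound kinesin, was at 3.97 and 3.74 without and 2.99, 3.27 and 3.18 with stimulation (fitted -0.70, SE 0.182, unadjusted p = 0.0027). Top2a, a topoisomerase that untangles chromosomes, was at 7.12 and 7.42 against 6.60, 6.89 and 6.73 (fitted -0.53, SE 0.239), and Mki67, the antigen of the Ki-67 stain, at 6.26 and 6.59 against 6.05, 6.03 and 5.73 (fitted -0.49, SE 0.313). Nusap1, a spindle protein, and Birc5, or survivin, were 0.53 (SE 0.346) and 0.49 (SE 0.30) lower. Of these, Kif4 alone kept its direction with the actin covariate, while Top2a was at 0.12, Mki67 at 0.15, Nusap1 at 0.61 and Birc5 at 0.13.

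Genes of DNA replication and nucleotide synthesis leaned lower by count, while few passed singly. Of 32 genes tested, 16 were lower and 6 higher in both experiments, 9 had no overlap downward (12.8% of all genes), 1 had an unadjusted p below 0.05 with a lower level (4.42%), and the median was -0.17. Gins2, part of the replicative helicase, was 0.44 lower (SE 0.177), Rfc5, of the clamp loader, 0.42 (SE 0.209), and Rrm1, of ribonucleotide reductase, 0.38 (SE 0.23). Pola1, the catalytic subunit of the polymerase that starts each strand, and Uhrf1, which maintains DNA methylation, were both 0.32 lower (SE 0.191 and 0.29). With the actin covariate 28 of the 32 genes were higher, with a median of 0.31, among them Gins2 at 0.10, Rfc5 at 0.16, Rrm1 at 0.30 and Uhrf1 at 0.41.

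Interferon response genes leaned lower. Of 31 tested, 16 were lower and 2 higher in both experiments, 13 had stimulated arrays all below the unstimulated ones (12.8% of all genes), and 8 had an unadjusted p below 0.05 with a lower level (4.42%), with 0 higher. Without the unstimulated array of experiment 2, which leaves a single unstimulated array, that count was smaller. The median was -0.15, or -0.14 with the actin covariate, under which 19 were lower and 12 higher. Many of these genes carry in their promoter the interferon stimulated response element, to which the factor ISGF3 binds. Its core, GAAA repeated after 2 bases of any kind, on either strand, was in 12 of the 30 promoters searched and in 3.02% of all. For the next members the match nearest the start is shown in capitals, and it lies on the opposite strand.
Ifit1, chr19:34640794-34640823, plus strand: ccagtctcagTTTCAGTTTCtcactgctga
Ifit3, chr19:34583397-34583426, plus strand: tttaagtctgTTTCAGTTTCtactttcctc
Ifit3 and Ifit1, which bind viral RNA, stood at 2.70 and 2.83 and at 2.13 and 2.12 without stimulation. With it they stood at 1.97, 1.74 and 1.57 and at 1.50, 0.79 and 1.89, close to or below the filter level. Ifit2, another member of the family, was 0.68 lower (SE 0.257). Ly6e, an interferon-induced surface protein, was at 9.15 and 8.97 against 8.10, 8.07 and 8.0 (fitted -1.0, SE 0.182, adjusted p = 0.189), with nearly equal stimulated arrays. Rtp4, another induced gene, was at 4.13 and 4.14 against 3.39, 3.30 and 3.67. Genes outside the list that hold the motif had a median difference of -0.0007 (423 genes), close to the 0.0077 of genes without it.

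MHC class I loading genes leaned the same way. Of 17 tested, 12 were lower and 2 higher in both experiments, 8 had no overlap downward (12.8% of all genes), 3 had an unadjusted p below 0.05 with a lower level (4.42%), and the median was -0.20. B2m, the light chain of class I molecules, was at 12.71 and 12.70 against 12.15, 11.84 and 12.09 (fitted -0.68, SE 0.143, unadjusted p = 0.00064), but the other probe set of the gene differed the other way. Tap2, the peptide transporter, Tapbp, which holds class I molecules to it, and Psmb10, of the immunoproteasome, were 0.38 (SE 0.182), 0.37 (SE 0.153) and 0.38 (SE 0.147) lower. Nlrc5, the transactivator of these genes, was at 5.59 and 5.68 against 5.32, 5.21 and 5.32. With the actin covariate 9 of the 17 were higher and 8 lower.

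Survival and quiescence genes differed singly. Fas, the death receptor, was at 3.93 and 4.12 against 4.60, 4.36 and 4.96 (fitted 0.61, SE 0.182), and Casp4, an inflammatory caspase, was 0.44 higher (SE 0.20). Bcl2l11, which encodes the death inducer BIM, was at 8.60 and 8.35 against 7.98, 7.69 and 8.25, and Bad, another, was 0.69 lower (SE 0.309). Among 31 genes of quiescence and cell cycle brakes 14 were lower and 9 higher in both experiments, and with the actin covariate 13 were lower and 18 higher. Gimap4 and Gimap7, lymphocyte GTPases tied to survival of resting cells, were both 0.65 lower (SE 0.179 and 0.235), Pdcd4, a brake on translation, 0.68 (SE 0.322), Btg1, an antiproliferative factor, 0.67 (SE 0.252), and Cdkn2d, a CDK inhibitor, 0.68 (SE 0.32, and 0.035 higher with the actin covariate).

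For several genes described above the naive-derived response differed from the memory-derived one. The interaction term, which subtracts the memory-derived from the naive-derived difference, passed for 401 of 14795 genes (2.71%), 239 positive (1.62%) and 162 negative (1.09%). With the replicate block over all arrays 26 genes passed and with the block within each origin 0, and leaving out single arrays gave 0 (without the unstimulated naive-derived array of experiment 1) to 1505 (without the unstimulated memory-derived array of experiment 2). For Il2 the naive-derived difference was 2.25 and the memory-derived one 7.05 (interaction -4.80, SE 1.02, adjusted p = 0.0411, and 0.0904 with the replicate block). Il1a (1.68 against 5.24, adjusted p = 0.00693) kept its call with the block over all arrays (0.0287) and lost it with the block within origin (0.0600). Ltb (-0.98 against -3.93, adjusted p = 0.0166) did likewise (0.0267 and 0.0600). Gzmb was 0.62 higher in naive-derived and 0.24 lower in memory-derived cells (interaction 0.86, SE 0.20, adjusted p = 0.0497, and 0.0975 with the block). For Il3 the corresponding values were 0.99 and 7.94 (interaction -6.95, SE 1.25, adjusted p = 0.0268, and 0.0640 with the block), where the unstimulated naive-derived arrays stood at 10.34 and 10.02 and the unstimulated memory-derived ones at 1.78 to 5.92. Fgl2, by contrast, differed by -2.41 and -3.32, and its interaction of 0.91 (SE 0.394) did not pass (adjusted p = 0.198).

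**Figure D4:**
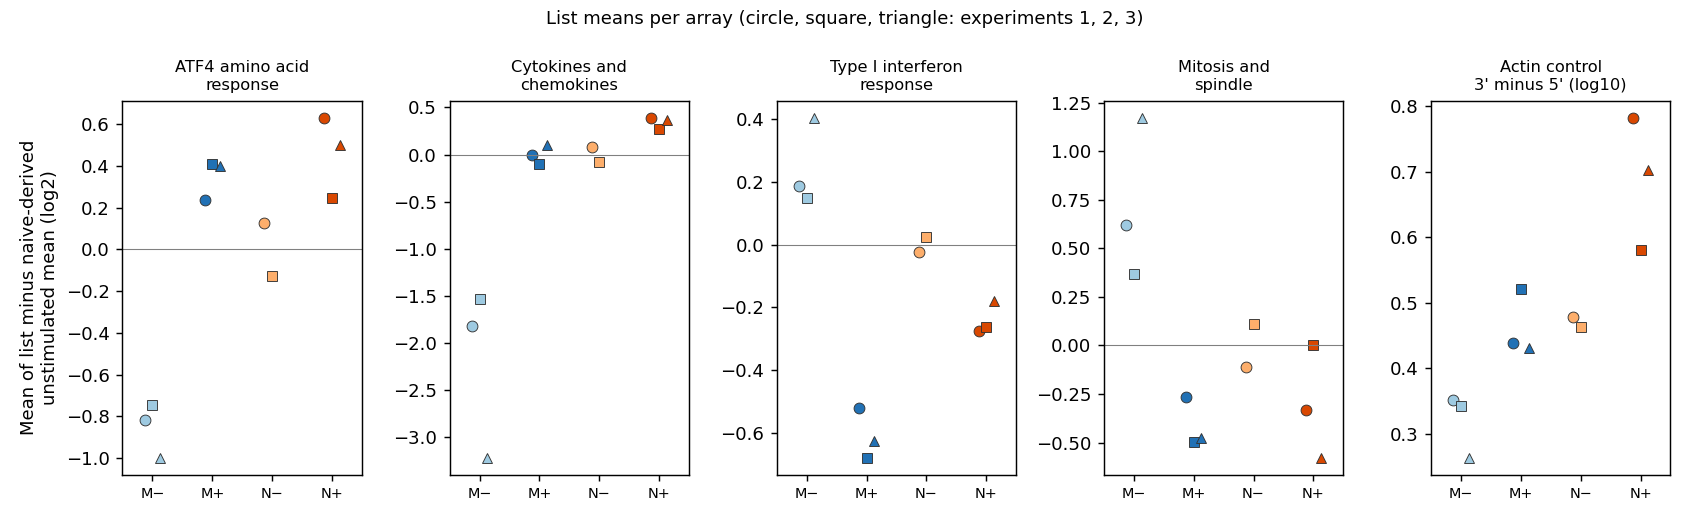
Mean level of 4 gene lists on each array relative to the mean of the 2 unstimulated naive-derived arrays (log2), and the actin 3' minus 5' difference (log10). Groups and symbols are M- and M+ for memory-derived and N- and N+ for naive-derived cells without and with stimulation, and circle, square and triangle for experiments 1, 2 and 3. The naive-derived unstimulated arrays lie between -0.13 and 0.13, near the stimulated memory-derived arrays for cytokines (-0.10 to 0.10), and the stimulated naive-derived arrays lie above them for the ATF4 list (0.25 to 0.63) and cytokines (0.27 to 0.39).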

How the data were processed

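RNA of the 11 arrays was hybridized to Affymetrix arrays, and the deposited table holds 45101 probe sets. Affymetrix Expression Console is named, per the submitters' processing notes, with no version. The authors deposited log10 values, a base inferred here from the steps of the hybridization controls (mean 1.33 for bioB to 3.41 for cre), and all columns have the same set of values, as after quantile normalization. Values were multiplied by 3.3219 to give log2. A single gene symbol was given for 34945 probe sets and several for 932, and 9160 were unnamed here. Each gene was represented by its single-symbol probe set of highest mean, and 14795 of 18193 genes exceeded the 40th percentile on at least 2 arrays. limma 3.58.1 in R 4.3.3 fitted 4 group means over all 11 arrays, with Benjamini-Hochberg adjustment over all tested genes. The script was tested on simulated data. Sequences came from RefSeq promoters.

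Members and gene lists were chosen with earlier results of these data known. Genes were named if they passed at adjusted p below 0.05, if they were among the 15 highest or 15 lowest by the smaller paired difference with groups that do not overlap, if they were among the up to 5 largest differences of a list with 1 sign in both experiments, or from a fixed set of activation genes. Alternatives were a replicate block, fits on fewer arrays, other scalings, filters, probe set rules and variance models, the actin covariate, and each array left out. Arrays whose titles give the same biological replicate number were read as the same experiment. Deviations of same-experiment naive-derived arrays correlated at 0.112 and 0.0944, and those of all 15 same-experiment pairs at -0.0716 to 0.112. Pairs of different experiments ranged alike, from -0.131 to 0.112. With 2 unstimulated naive-derived arrays the deviations mirror each other, so that crossed pairs of experiments 1 and 2 stood at -0.112 and -0.0944. These correlations therefore do not show the pairing. The number of arrays limits the precision.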

Additional observations from a re-analysis of the deposited data

Results flagged for a closer look

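For 34 of the 156 named genes the response to stimulation differed between naive-derived and memory-derived cells by the interaction term of limma (adjusted p below 0.05). Over all genes tested it did so for 401 of 14795 (2.71%). The named genes were picked from these same data, many for their naive-derived differences, so setting the 2 shares side by side tests nothing. Each value is the naive-derived minus the memory-derived difference (log2, 2 and 3 against 3 and 3 arrays), followed by its adjusted p. Among cytokines and chemokines the differences were Il1a -3.55 (0.00693), Il2 -4.80 (0.0411), Cxcl2 -1.71 (0.0252), Tnf -2.77 (0.0301) and Il3 -6.95 (0.0268). Among transcription factors, activation ligands and NF-kappaB genes they were Fosl1 -2.19 (0.0457), Egr2 -1.23 (0.0496), Irf4 -1.63 (0.0411), Cd70 -2.83 (0.0431), Fasl 0.90 (0.0303), Nfkbid -2.43 (0.0272), Cflar -1.57 (0.0411) and Rel -1.70 (0.0434). Among receptor signalling genes, receptors and the lymphotoxin beta gene they were Rasgrp1 0.96 (0.0362), Ptpn6 1.40 (0.0258), Dok2 1.13 (0.0411), Ccr2 2.28 (0.0170), Ifngr1 2.02 (0.0171) and Ltb 2.95 (0.0166). Among amino acid, stress and growth genes they were Asns -1.54 (0.0227), Slc1a4 -1.57 (0.0285), Cars -1.06 (0.0242), Ppp1r15a -1.12 (0.0365), Polr1c -1.08 (0.0389) and Ndrg1 -2.50 (0.0207). Among interferon, proteasome and quiescence genes they were Rtp4 1.49 (0.0226), Psmb10 1.14 (0.0252), Pdcd4 1.88 (0.0471), Gimap4 1.28 (0.0293) and Gimap7 2.06 (0.0207). The remaining genes were Gzmb 0.86 (0.0497), Fndc10 1.74 (0.0423), S100a16 -1.49 (0.0438) and H2-Q2 -1.02 (0.0261). H2-Q2 lay below the filter level in both naive-derived groups, so its value rests on signal under that level and gives no size of a change. With the replicate block Il1a, Ltb and Ndrg1 passed (adjusted p = 0.0287, 0.0267 and 0.0474) and the others did not, and with the block within each origin none of the 34 passed (adjusted p = 0.0600 to 0.0936). The naive-derived unstimulated arrays already had high cytokine levels, and the part of that starting level in these differences was not tested.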

How the results depend on the processing

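Of the 2 genes that passed at adjusted p below 0.05, 0 remained as a count with the replicate block over all arrays, the replicate block within origin, naive-derived arrays only with or without the replicate block, no filter, a filter on naive-derived arrays, or the actin covariate. There was 1 with experiments 1 and 2 only, with hybridization control scaling and with a stricter filter, there were 13 with a trended, robust variance, and leaving out each array gave 0 to 5. Genes higher at an unadjusted p below 0.05 numbered 232 with control scaling and 449 to 755 with each array left out, and lower genes 339 to 823. The count of genes whose response differed from the memory-derived one was 26 with the replicate block, 0 with the block within origin, 49 with experiments 1 and 2 only, 146 with control scaling, 174 without a filter, 1064 with the stricter filter, 1120 with the trended variance and 777 with the actin covariate, and 0 to 1505 with each array left out. At least 2-fold higher in both experiments were 8 genes under the stricter filter, and at 1.5-fold the counts were 164 higher and 140 lower. Over 156 named genes and 24 alternatives, 76 values changed sign. With the actin covariate these were Il2 -0.069, Spry1 -0.13, Fosl1 -0.43, Cd70 -0.070, Tnfsf9 -0.16, Tars -0.063, Atf6 -0.029, Ndrg1 -0.22, Ifng -1.04, Csf2 -1.01, Il3 -1.05, Ccl3 -1.50, Xcl1 -0.54, Il2ra -0.63, Egr2 -0.24, Nr4a1 -0.34, Irf4 -0.12, Myc -0.74, Scd2 0.10, Top2a 0.12, Nusap1 0.61, Birc5 0.13, Mki67 0.15, Gins2 0.10, Rfc5 0.16, Rrm1 0.30, Uhrf1 0.41, Cdkn2d 0.035, Egr1 0.23 and Il7r 0.25. With experiments 1 and 2 only, the block within origin, the naive-derived block or without the stimulated array of experiment 3, Xcl1 was -0.21, Il2ra -0.049, Nr4a1 -0.0098, Myc -0.10 and Cd40lg -0.27. Control scaling gave Xcl1 -0.0026 and Il2ra -0.029, the mean of probe sets Il2ra -0.14, Tnfsf11 0.12 and Fasl 0.0010, and the replicate block Tnfrsf9 0.0020, Tnfsf11 0.069 and Cd40lg -0.16. With each array left out in turn, the genes that changed sign ranged as Gzmd -2.35 to 0.41, Gzmf -2.12 to 0.41, Ccl3 -0.11 to 0.15, Xcl1 -0.21 to 0.23, Cd69 -0.36 to 0.31, Il2ra -0.30 to 0.32, Egr1 -0.60 to 0.29, Nr4a1 -0.071 to 0.60, Myc -0.10 to 0.19, Klf2 -0.18 to 0.10, Tnfsf11 -0.35 to 0.058, Cd40lg -0.27 to 0.32 and Fasl -0.17 to 0.057. The arrays whose removal turned them were the unstimulated one of experiment 1 for Gzmd, Gzmf, Cd69, Egr1, Klf2, Tnfsf11 and Fasl, that of experiment 2 for Ccl3, Xcl1, Il2ra, Nr4a1, Myc and Cd40lg, and the stimulated ones of experiment 1 for Il2ra and Egr1, of experiment 2 for Ccl3, Cd69 and Klf2 and of experiment 3 for Xcl1, Il2ra, Nr4a1, Myc and Cd40lg. The causes of these shifts were not tested. The fit with the actin covariate has 1 residual degree of freedom fewer, and the covariate separates the stimulated from the unstimulated groups of both origins. The replicate block ended both calls of the naive-derived comparison, Fgl2 and H2-Q2.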
